A study of Mus musculus with 4 samples.

Results

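The genes described here are 8 glycosyltransferases that build the O-linked sugar chains of mucins in the mouse colon: B3gnt7, B3gnt6, Galnt12, C1galt1, Gcnt3, St6galnac6, B4galnt2 and Fut2. They were taken by name from the 29897 genes listed in the deposited count matrices, and all 8 were found. The list was drawn up with the levels and treatment differences of these genes in these libraries already known. Values of the 8 genes are therefore given as descriptions, with their errors and without p-values. The wider gene lists used further on were also chosen with earlier results of these data known. Their p-values are therefore no independent evidence.

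Mucins are large secreted or membrane-bound proteins whose serine- and threonine-rich stretches carry dense sugar chains. In the Golgi, a GalNAc transferase adds the first sugar, core enzymes then add galactose or GlcNAc to it, other enzymes lengthen or branch the chain, and the ends are capped with fucose, sialic acid, GalNAc or sulfate. In the colon, goblet cells secrete the gel-forming mucin Muc2, while colonocytes, the absorptive cells of the surface, carry membrane mucins, and both arise from dividing cells of the crypt.

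Droplet single-cell RNA counts came from 2 control libraries and 2 libraries of mice dosed with carbon tetrachloride (CCl4), which damages the liver and serves to induce cirrhosis in rodents. Per the labels, the treated mice were specific pathogen-free, began CCl4 at 6 weeks of age and received it for 6 weeks. The labels give no strain, sex or segment of colon, no age for the controls, and no number of animals per library. The spread between libraries may thus be technical. No liver readout was analysed here.

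The libraries held 10021 to 13986 cell barcodes and 55834301 to 92383719 counts. Depth was 3703 to 4341 counts per barcode at the median, with 5.65% to 6.05% mitochondrial counts in the controls and 9.08% to 10.7% after CCl4. Any 2 libraries shared 5592 to 6966 barcode sequences, but 0 of 38852 filtered cells had the profile of a cell in another library. Cells were clustered and classed from marker genes, and 3 epithelial classes carry the comparisons: goblet-like, colonocyte-like and crypt-like cells, called goblet, colonocyte and crypt cells hereafter. Values are given for control 1, control 2, CCl4 1 and CCl4 2 in turn. There were 195, 213, 682 and 571 goblet cells. There were 534, 475, 704 and 725 colonocytes, and 60, 54, 275 and 201 crypt cells. The goblet markers summed to 24427 to 31856 CPM (counts scaled to a common library total) in goblet cells and to 107 to 353 CPM in colonocytes. The crypt class joined a cluster with raised crypt markers and a cycling cluster. The 12 crypt markers summed to 868, 1013, 932 and 855 CPM in this class. They summed to 619, 660, 622 and 636 CPM in goblet cells and to 154 to 195 CPM in colonocytes. The stem cell gene Lgr5 was low in crypt cells, at 4.45, 15.6, 4.76 and 6.22 CPM. A limit of 3 counts corresponds to 4.45, 4.69, 0.713 and 1.17 CPM there, so only control 1 was at it.

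Levels are CPM of one class's summed counts per library. Since transcripts were captured by their poly(A) tails, levels are compared between classes and libraries and not between genes. Treatment differences are log2 changes with standard errors (SE) from edgeR's quasi-likelihood fit of all genes, and a gene is called past the threshold at an adjusted p below 0.05.

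Across the 13 classes that held 50 cells or more in each library, 7 of the 8 genes had their highest mean in goblet cells. For each of the 7, the lowest goblet library lay above the highest library of the next class. B4galnt2 was the exception. Its mean was highest in colonocytes, at 96.8 ± 8.91 CPM (SD, n = 4 libraries), then crypt cells, at 56.9 ± 10.1 CPM, then goblet cells, at 37.1 ± 3.19 CPM, and these ranges did not overlap.

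**Figure D1:**
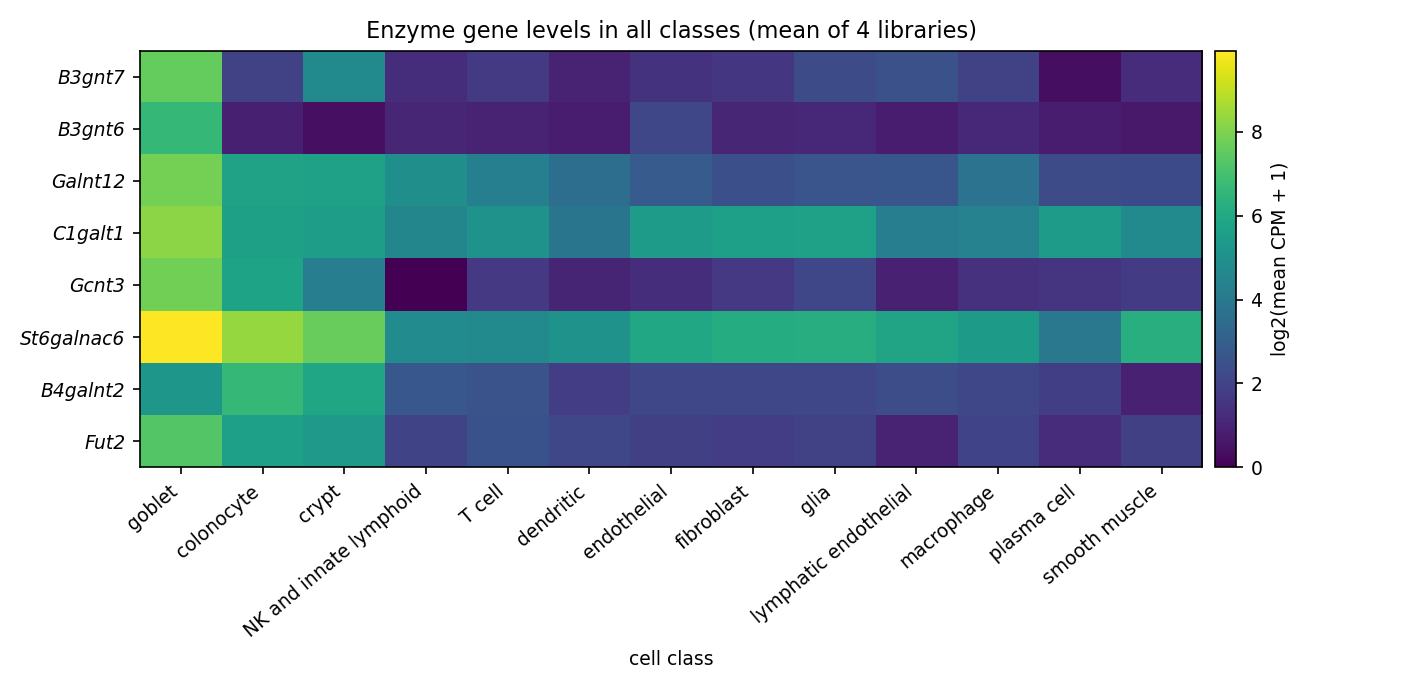
Mean level of each enzyme gene in the 13 cell classes, as log2(mean CPM + 1) over the 4 libraries; rows are genes, columns are classes, and colours are to be compared along a row. B4galnt2 peaks in colonocytes at 96.8 CPM, and the other 7 genes peak in goblet cells.

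RefSeq windows around the transcription start were at hand for 4 of the 8 genes (B3gnt7, C1galt1, St6galnac6 and B4galnt2; build GRCm38.p6). The upstream bases are printed for B3gnt7, the gene with the widest treatment differences, for B4galnt2, the one gene with its peak in colonocytes, and for St6galnac6, whose treatment difference varied in sign between classes. The B3gnt7 window lies before the RefSeq start but inside the wider gene span of GENCODE M21. The windows are chr1:86302971-86303220 on the plus strand, chr11:95914892-95915121 on the minus strand and chr2:32599459-32599708 on the plus strand. They read 5′ to 3′ and end just before the RefSeq start, or 20 bases further upstream for B4galnt2, where an annotated exon begins. Capitals mark matches on either strand to the GC box letters GGGCGG or to the E-box letters CACGTG.
B3gnt7: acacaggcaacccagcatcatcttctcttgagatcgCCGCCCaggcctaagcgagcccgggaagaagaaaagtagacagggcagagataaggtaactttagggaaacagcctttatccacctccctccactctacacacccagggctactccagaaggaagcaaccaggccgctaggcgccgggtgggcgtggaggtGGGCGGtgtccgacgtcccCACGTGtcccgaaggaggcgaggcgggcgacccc
B4galnt2: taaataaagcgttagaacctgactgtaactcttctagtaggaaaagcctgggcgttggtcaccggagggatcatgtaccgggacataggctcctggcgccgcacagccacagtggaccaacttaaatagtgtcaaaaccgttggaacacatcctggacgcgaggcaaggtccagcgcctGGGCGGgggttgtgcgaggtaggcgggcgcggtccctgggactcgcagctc
St6galnac6: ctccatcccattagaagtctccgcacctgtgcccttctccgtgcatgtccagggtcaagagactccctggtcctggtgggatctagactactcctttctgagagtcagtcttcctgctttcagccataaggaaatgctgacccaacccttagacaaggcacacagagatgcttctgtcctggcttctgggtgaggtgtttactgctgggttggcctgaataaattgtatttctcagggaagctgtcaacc
B3gnt7 held GGGCGG at 214 and 53 bases before the start and CACGTG at 34 bases before it. B4galnt2 held GGGCGG at 71 bases before the start, and C1galt1, not shown, held it at 5 places. The St6galnac6 window held no match to either, nor to the TATA letters TATAAA, the CCAAT box letters CCAAT, the E-box letters CAGCTG or the letters TTTATG. Of 32851 windows of the same 250 bases, 32.7% held GGGCGG and 6.02% held CACGTG. The matches describe letters only.

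The first step of the chain is represented by Galnt12 (chromosome 4, 47091909 to 47123070, plus strand), which attaches GalNAc to serine or threonine. In goblet cells it was at 231, 243, 217 and 241 CPM, and the log2 change was -0.01 ± 0.09 (SE). In colonocytes it was at 58.2, 57.3, 47.4 and 45.4 CPM, with a log2 change of -0.33 ± 0.11. The groups overlapped in goblet cells, and both CCl4 libraries were the lower ones in colonocytes. Crypt cells held 68.2, 45.4, 40.9 and 45.5 CPM, with overlapping groups. The goblet level of Galnt12 was 3.97 to 5.31 times its colonocyte level within a library, while the ranges of colonocytes and crypt cells overlapped.

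C1galt1 (chromosome 6, 7844842 to 7875687, plus strand) makes core 1 by adding galactose to the first sugar. It was at 304, 334, 277 and 275 CPM in goblet cells, with a log2 change of -0.17 ± 0.09, and both CCl4 libraries were below both controls. In colonocytes, at 47.1, 52.4, 45.0 and 53.9 CPM, and in crypt cells, at 50.4, 45.4, 40.7 and 47.1 CPM, the groups overlapped. C1galt1 was also found outside the epithelium at the colonocyte level: the means of glia, at 50.5 ± 9.09 CPM, and fibroblasts, at 48.0 ± 3.51 CPM (SD, n = 4 libraries), had ranges that overlapped that of colonocytes.

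B3gnt6 (chromosome 7, 98192417 to 98199481, minus strand) makes core 3 by adding GlcNAc to the first sugar, a core typical of colonic mucin. It was at 107, 104, 90.0 and 91.5 CPM in goblet cells, lower in both CCl4 libraries, with a log2 change of -0.17 ± 0.10. Outside goblet cells it was close to undetected. Colonocytes held 6, 2, 12 and 6 counts, or 0.348 to 1.24 CPM, and crypt cells held 0, 0, 2 and 2 counts. In the crypt sums, the limit of 3 counts corresponds to 4.45 and 4.69 CPM in the controls and to 0.713 and 1.17 CPM after CCl4. B3gnt6 did not pass the low-count filter in colonocytes or crypt cells, and no change was fitted there.

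Gcnt3 (chromosome 9, 70031496 to 70038088, minus strand) branches core 1 and core 3 chains into core 2 and core 4. Its goblet level was 262, 251, 186 and 190 CPM, and the log2 change was -0.41 ± 0.09. Its colonocyte level was 45.5, 42.0, 62.3 and 63.4 CPM, with a log2 change of 0.51 ± 0.11. CCl4 libraries were thus the lower ones in goblet cells and the higher ones in colonocytes, with no overlap in either class. Both changes were past the threshold. The gene was listed with these contrasts known, so these calls, and those under the alternatives below, are no separate evidence. Crypt cells held 16.3, 15.6, 20.4 and 18.7 CPM, from 10 to 86 counts, with a log2 change of 0.33 ± 0.39, which was 1.01 and 1.19 with clusters at resolution 2.0 and 1.0 and past the threshold in no alternative. Within a library, the goblet level of Gcnt3 was 5.77 and 5.98 times the colonocyte level in the controls and 2.99 times in both CCl4 libraries.

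The goblet change of Gcnt3 was not past the threshold without CCl4 1, at -0.39 ± 0.15, or without CCl4 2, at -0.40 ± 0.15. The colonocyte change was not past it without CCl4 1, at 0.49 ± 0.16, without CCl4 2, at 0.52 ± 0.16, or without control 2, at 0.42 ± 0.13. The goblet change also missed the threshold with upper-quartile scaling, at -0.37, with epithelial clusters at resolution 1.0, at -0.39, with classes taken from the clusters of all cells, at -0.35, and with stricter cell filters (at least 500 genes, at most 10% mitochondrial counts), at -0.37. The colonocyte change also missed it by DESeq2, at 0.51, at resolution 2.0, at 0.45, with clusters of all cells, at 0.39, and with the stricter filters, at 0.87. Of 13 alternatives, the goblet change was past the threshold in 7 and the colonocyte change in 6, and the sign was kept in all 13 in both classes.

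B3gnt7 (chromosome 1, 86302832 to 86307305, plus strand) adds GlcNAc to lengthen chains of repeated galactose and GlcNAc, the backbone on which keratan sulfate is built. Among the enzyme genes fitted, it had the largest treatment difference in each of the 3 classes. In goblet cells it was at 122, 146, 253 and 244 CPM, higher in both CCl4 libraries than in either control. The group means were 134 ± 17.0 and 249 ± 6.04 CPM (SD, n = 2 libraries each), and the log2 change of 0.94 ± 0.10 was past the threshold.

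In crypt cells B3gnt7 rested on 1, 1, 227 and 115 counts, or 1.48, 1.56, 54.0 and 44.7 CPM. The ratio of the pooled CPM was 33.1, with an exact 95% interval of 9.10 to 275 that covers counting error only, and the log2 change of 5.0 ± 0.56 was past the threshold. In colonocytes B3gnt7 was at 1.79, 1.57, 4.44 and 3.78 CPM, from 9 to 43 counts, with a log2 change of 1.27 ± 0.49 that was not past the threshold. It was 1.97 and past the threshold with doublets kept, and 0.81 and not past it at resolution 2.0. The 1 count in each crypt control lies under the limit of 3 counts, which is 4.45 and 4.69 CPM there. After CCl4 it was higher in crypt cells than in colonocytes in both libraries. The goblet and crypt changes were past the threshold under every alternative run, 13 and 12 of them. The alternatives reuse the same libraries and the contrasts known when the gene was listed, so these calls are no separate evidence.

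**Figure D2:**
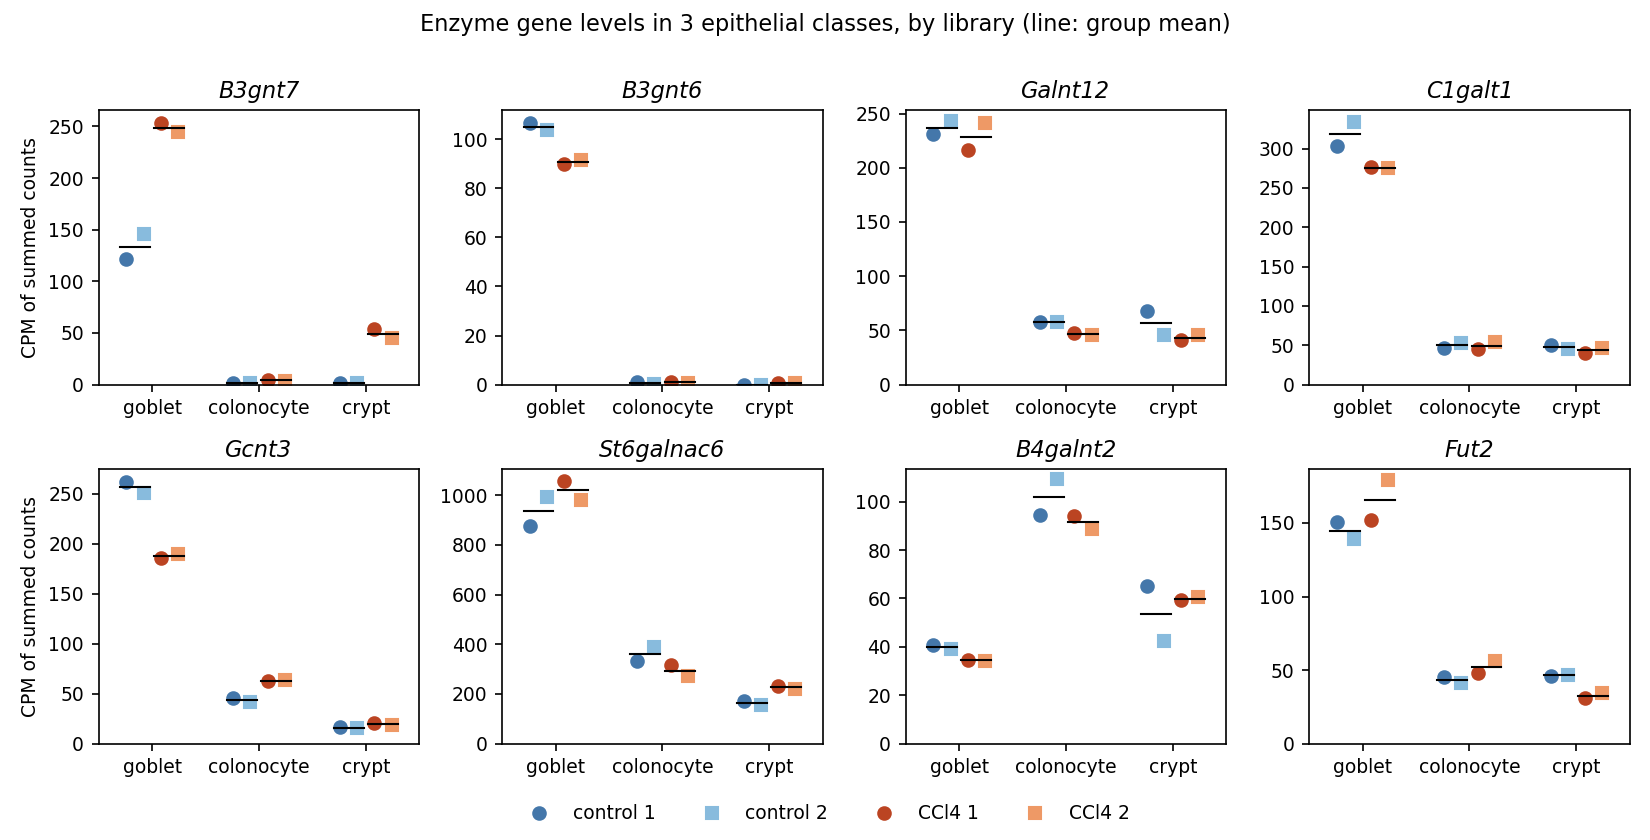
Level of each enzyme gene in goblet, colonocyte and crypt cells, in CPM of summed counts on linear axes from 0. Each point is 1 library and each line a group mean; B3gnt7 in crypt cells sits at 1.48 and 1.56 CPM in the controls and at 54.0 and 44.7 CPM after CCl4.

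The share of cells in which B3gnt7 was detected moved with its level. With every cell thinned to 2000 UMIs, the share of goblet cells with a B3gnt7 UMI was 17.6%, 20.4%, 33.8% and 30.5%. Without thinning it was 41.5%, 47.9%, 63.5% and 61.6%. In thinned crypt cells the share was 0 of 59 cells, 2.0%, 10.04% and 7.69%, with exact binomial 95% intervals of 0 to 6.06%, 0.0506% to 10.6%, 6.72% to 14.3% and 4.37% to 12.4%. Unthinned, it was 1.67%, 1.85%, 23.6% and 18.9% of crypt cells. Fibroblasts, which should lack the enzyme, showed it in 0.108%, 0.0526%, 0.487% and 0.369% of thinned cells, and in 0.132%, 0.0440%, 1.60% and 1.25% of unthinned ones, at a median depth of 3714.5 to 4388.0 UMIs before thinning against 9318.0 to 14451.0 in crypt cells. Thinning left out 25, 27, 81 and 62 shallower goblet cells and 1, 4, 6 and 6 crypt cells. The crypt shares after CCl4 were above the fibroblast shares of the same libraries. The intervals of the crypt control shares held the fibroblast shares. The part of free RNA in the crypt shares was not tested.

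Free goblet RNA can add UMIs to other cells, so Muc2, the main goblet transcript, is given beside B3gnt7. In crypt cells the 10 goblet markers, Muc2 among them, summed to 1626, 526, 731 and 764 CPM. The source of Muc2 in these cells was not tested. Muc2 in crypt cells was at 455, 117, 195 and 87.5 CPM, with overlapping groups. Per 100 Muc2 counts, B3gnt7 had 1.46, 1.53, 4.07 and 4.05 counts in goblet cells and 0.326, 1.33, 27.7 and 51.1 in crypt cells. After CCl4 the crypt ratio was above that of goblet cells of the same libraries, and the crypt control ratios rest on 1 B3gnt7 count each. In fibroblasts, the ratio was 0.943, 1.09, 2.90 and 2.64, and B3gnt7 was at 0.417, 0.390, 3.62 and 3.37 CPM. In colonocytes, where Muc2 itself was at 24.8, 16.9, 58.4 and 73.1 CPM, the ratio was 7.24, 9.28, 7.61 and 5.17. It was 1.92, 1.60, 3.45 and 1.69 in endothelial cells, 3.41, 6.32, 5.05 and 2.24 in macrophages and 2.83, 2.13, 2.35 and 1.35 in T cells. The ratio was higher in both CCl4 libraries in fibroblasts, as in goblet cells, and the groups overlapped in endothelial cells, macrophages and T cells. The part of free RNA in the crypt and colonocyte values of B3gnt7 was not tested.

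The goblet class held 6 clusters. With the 4 libraries pooled, so that the treatment difference enters the levels, B3gnt7 varied 4.19-fold between them, from 87.8 CPM in cluster 11, led by Retnlb and Muc2, to 368 CPM in cluster 8, led by Ccl6 and Sval1. Cluster 8 made up 11.3%, 12.7%, 20.8% and 26.1% of goblet cells. Cluster 9, led by Mptx1 and Sval1 and with B3gnt7 at 265 CPM, made up 11.3%, 9.86%, 25.1% and 21.4%. Cluster 11 made up 30.8%, 29.1%, 14.4% and 15.9%. Clusters 8 and 9 thus took a larger share, and cluster 11 a smaller one, in both CCl4 libraries. Clusters 10 and 14 also took a smaller share there, and cluster 19 a larger one. The pooled level of a cluster gives more weight to the CCl4 libraries where they hold more of its cells. Level and share are therefore not independent, and a link between them was not tested.

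Marker sums differed in goblet cells too. The 10 goblet markers, Muc2 among them, summed to 29217, 31856, 24427 and 25390 CPM, lower in both CCl4 libraries. The 10 colonocyte markers summed to 1295, 1255, 1476 and 1587 CPM, higher in both. The 9 enteroendocrine markers summed to 3.19, 14.2, 50.02 and 233 CPM. The part of these differences in the goblet values, those of Muc2 and Muc3 below included, was not tested.

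Within clusters, B3gnt7 was higher in the CCl4 mean in 5 of 6, and both CCl4 libraries lay above both controls in 3 of 6. With the 6 clusters weighted equally in every library, B3gnt7 was at 158, 172, 215 and 215 CPM, a ratio of means of 1.31 in place of 1.86. The libraries still did not overlap. For Gcnt3, equal weights gave 230, 189, 174 and 188 CPM, and the ratio moved from 0.732 to 0.866, with control 2 and CCl4 2 at the same level. For St6galnac6, the ratio moved from 1.09 to 0.974 in goblet cells. Over the 8 colonocyte clusters it moved from 0.81 to 0.88, at 334, 386, 340 and 293 CPM, with overlapping groups. The ratio also crossed 1 for Galnt12 in goblet cells, from 0.966 to 1.08, and for B4galnt2 in colonocytes, from 0.895 to 1.04. This weighting was chosen after the data were seen, and since clusters were formed from the same counts, it is a description. It gives small and shallow clusters the same weight as the others. Goblet cluster 14 had a median of 1601 UMIs and goblet cluster 19 one of 4825.5. Cluster 19 held only 3.59% and 3.76% of the goblet cells of control 1 and control 2.

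**Figure D3:**
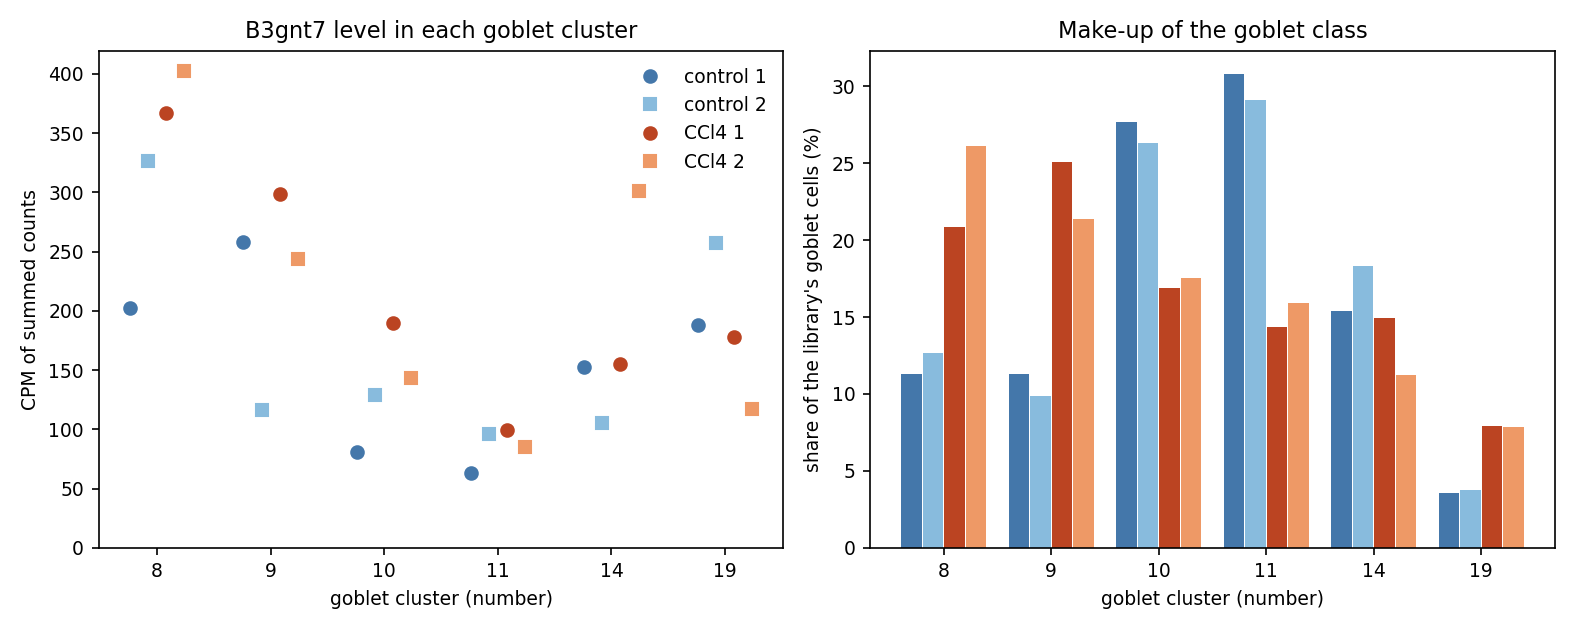
Left, B3gnt7 level in each of the 6 goblet clusters by library, in CPM of summed counts; right, share of each library's goblet cells in each cluster, in %. Clusters 8 and 9, with 368 and 265 CPM of B3gnt7 over the pooled libraries, take a larger share of the CCl4 libraries, and cluster 11, with 87.8 CPM, a smaller one.

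In the non-cycling crypt cluster, B3gnt7 was at 2.43, 2.56, 70.2 and 55.3 CPM, from 1, 1, 199 and 103 counts. In the cycling crypt cluster it had 0, 0, 28 and 12 counts, or 0, 0, 20.5 and 16.9 CPM. In both clusters the CCl4 libraries were above the controls. The cycling cluster held 40%, 37.0%, 28.0% and 25.9% of the crypt cells, so its share was lower after CCl4, and the level differed within each cluster as well. Markers of other classes were also summed in crypt cells. The 10 goblet markers summed to 1626, 526, 731 and 764 CPM, with overlapping groups. The 10 colonocyte markers summed to 1029, 1136, 1273 and 1844 CPM, higher in both CCl4 libraries, and their part in the result was not tested.

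Of the genes that mark position along the gut, Hoxb13, a posterior homeobox gene expressed toward the distal colon, was higher in both CCl4 libraries in crypt and goblet cells. In crypt cells it was at 69.7, 57.9, 152 and 135 CPM, a log2 change of 1.20 ± 0.20 (adjusted p = 0.0397, edgeR's quasi-likelihood test with Benjamini-Hochberg adjustment), and in goblet cells at 104, 107, 167 and 132 CPM, a log2 change of 0.55 ± 0.12 (adjusted p = 0.0436). It was the only posterior Hox gene past the threshold, 1 of 5 tested in crypt cells and 1 of 6 in goblet cells, beside 0.162% and 1.28% of all genes tested. In colonocytes 0 of 6 passed, beside 3.20%, and 0 by DESeq2. There 0 of 6 had an unadjusted p below 0.05, beside 1931 of 12274 genes, and the Hoxb13 change was 0.08 ± 0.12. The other crypt changes were -0.16 for Hoxa9, 0.03 for Hoxa10, -0.18 for Hoxa13 and -0.12 for Hoxb9. In goblet cells they were 0.27, -0.13, 0.07 and 0.07, with -0.60 for Hoxa11. The Hoxb13 call held in 7 of 12 alternatives in crypt cells and 9 of 13 in goblet cells. Without CCl4 1, the change was 1.12 in crypt cells (adjusted p = 0.115) and 0.37 in goblet cells (adjusted p = 0.416). The crypt call was also lost at resolutions 1.0 and 2.0, with the stricter filters and with the replicate block, at adjusted p of 0.0567 to 0.236. The goblet call was also lost at resolution 1.0, with clusters of all cells and by DESeq2, at adjusted p of 0.0549 to 0.0721. The segment of colon sampled is not in the labels, and its part in the B3gnt7 difference was not tested.

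The capping enzymes come last. St6galnac6 (chromosome 2, 32599709 to 32620806, plus strand) adds sialic acid to GalNAc residues and is best known from glycolipids. In goblet cells it was at 878, 994, 1059 and 980 CPM, with overlapping groups and a log2 change of 0.17 ± 0.08. In colonocytes it was at 335, 390, 315 and 272 CPM, lower in both CCl4 libraries, with a log2 change of -0.31 ± 0.10. In crypt cells it was at 174, 155, 231 and 221 CPM, higher in both CCl4 libraries, with a log2 change of 0.49 ± 0.15. None of the 3 changes was past the threshold. The colonocyte change was past it in 4 of 13 alternatives: with the stricter filters, at -0.63, without CCl4 1, at -0.45, without control 1, at -0.39, and with the replicate block, at -0.32. It was -0.18 and not past it without CCl4 2. The goblet change was past it only without control 2, at 0.25, and the crypt change only without control 1, at 0.59. The levels fell from goblet cells to colonocytes to crypt cells without overlap of the libraries, and crypt cells lay nearer to colonocytes after CCl4 than in the controls.

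B4galnt2 (chromosome 11, 95865943 to 95914891, minus strand) adds a terminal GalNAc beside sialic acid and makes the Sda antigen of the large bowel. In colonocytes it was at 94.7, 110, 94.0 and 88.8 CPM, and in goblet cells at 40.7, 39.0, 34.6 and 34.3 CPM. Both CCl4 libraries were below both controls in these classes, but in colonocytes CCl4 1 and control 1 were nearly equal, and the log2 changes were -0.17 ± 0.10 and -0.16 ± 0.15. Crypt cells held 65.3, 42.3, 59.2 and 60.7 CPM, with overlapping groups. The goblet level was 0.356 to 0.430 times the colonocyte level in all 4 libraries.

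Fut2 (chromosome 7, 45648591 to 45666394, minus strand) adds the terminal fucose of the H antigen and is known as the secretor gene. In goblet cells it was at 150, 139, 152 and 179 CPM, with a log2 change of 0.24 ± 0.10. In colonocytes it was at 45.1, 41.5, 48.0 and 56.4 CPM, with a log2 change of 0.25 ± 0.12. CCl4 libraries were the higher ones in both classes, by a narrow margin over control 1. In crypt cells Fut2 was at 46.0, 46.9, 30.9 and 34.2 CPM, lower in both CCl4 libraries, with a log2 change of -0.49 ± 0.27. The goblet level was 3.17 to 3.36 times the colonocyte level in every library.

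**Figure D4:**
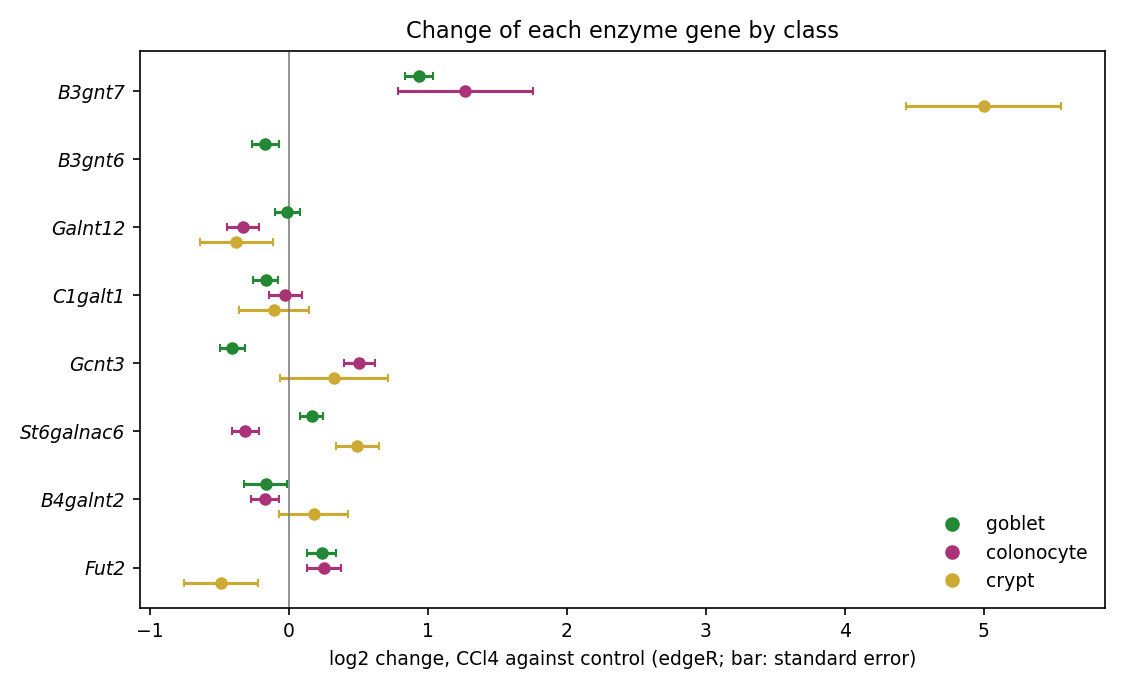
Log2 change from control to CCl4 of each enzyme gene in goblet, colonocyte and crypt cells, from edgeR's fit of all genes in a class; bars are standard errors (n = 2 libraries per group), and B3gnt6 was fitted in goblet cells only. B3gnt7 stands to the right in all 3 classes, at 0.94, 1.27 and 5.0, and Gcnt3 stands on opposite sides in goblet cells and colonocytes.

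In goblet cells, 2 of the 8 enzyme genes were past the threshold (B3gnt7 higher, Gcnt3 lower), beside 1.28% of the 11525 genes tested (0.894% higher, 0.39% lower). In colonocytes, 1 of 7 was past it (Gcnt3 higher), beside 3.20% of 12274 genes (1.76% higher, 1.44% lower), and in crypt cells 1 of 7 (B3gnt7 higher), beside 0.162% of 9865 genes (0.0912% higher, 0.071% lower). Since the genes were chosen with these contrasts known, nothing is read from these counts. The 2 groups did not overlap for 6 of 8, 6 of 7 and 4 of 7 of the genes, beside 45.3%, 46.0% and 42.3% of all genes tested. The median log2 change of the enzyme genes tested was -0.09, -0.02 and 0.18, and that of all genes tested was 0.00, 0.01 and -0.01.

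The treatment changes of 2 classes were also compared directly, by an interaction term over all genes with the library as a block. The B3gnt7 change in goblet cells was lower than that in crypt cells by -4.09 ± 0.57 (log2, SE). The Gcnt3 change in goblet cells was lower than that in colonocytes by -0.90 ± 0.12. For St6galnac6, the goblet change exceeded the colonocyte change by 0.50 ± 0.08, and the colonocyte change was below the crypt change by -0.85 ± 0.16. They were past the threshold for 1 of 8 enzyme genes between goblet and crypt cells, beside 0.209% of genes tested, for 2 of 8 between goblet cells and colonocytes, beside 4.34%, and for 1 of 7 between colonocytes and crypt cells, beside 0.151%. These contrasts are part of what chose the genes, and nothing is read from the counts. With clusters weighted equally, the CCl4 to control ratio of St6galnac6 was 0.974 in goblet cells and 0.88 in colonocytes, with overlapping groups in both. The St6galnac6 difference of colonocytes and crypt cells was not past the threshold without CCl4 1, at -0.93 ± 0.25, or without CCl4 2, at -0.72 ± 0.24. Nor was it by DESeq2, at -0.81 ± 0.23. The difference of goblet cells and colonocytes was not past it without CCl4 2, at 0.40 ± 0.13.

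The wider pathway was read from 8 lists of 85 further genes: GalNAc transferases, core enzymes, extension, fucose and blood group capping, sialic acid capping, sulfation, sugar donors and Golgi carriers, and mucins. These lists were chosen with earlier results of these data known, and the p-values below carry that limit. In goblet cells, 1 of the 62 tested rose and 1 fell, beside 0.894% and 0.39% of all genes tested. Both were mucins. Muc2, the gel-forming mucin, fell from 8925 ± 822 to 6125 ± 131 CPM (SD, n = 2 libraries each), a log2 change of -0.50 ± 0.06 (adjusted p = 0.00154, edgeR's quasi-likelihood test with Benjamini-Hochberg adjustment). Muc3, a membrane mucin, rose from 10.55 ± 1.38 to 34.7 ± 6.90 CPM, a log2 change of 1.74 ± 0.23 (adjusted p = 0.00169, same test). Muc3 and the separately listed Muc3a are near copies between which counting may split reads, so the Muc3 value is uncertain. Muc3 is mainly a colonocyte gene here, at 970, 909, 772 and 821 CPM in colonocytes. Both calls held under all 13 alternatives. The 62 genes had a median log2 change of -0.06.

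No GalNAc transferase, core, extension, fucose, sialic acid, sulfation or sugar donor gene outside the 8 passed the threshold of edgeR's test in goblet cells. With the mucins included, 18 of the 62 had an unadjusted p below 0.05 in that test, beside 1552 of 11525 genes tested. DESeq2 called 3, beside 133 of 22778 genes fitted: Muc2, Muc3 and a sugar donor gene, Gmds, an enzyme of GDP-fucose synthesis. The log2 change of Gmds was -0.30 ± 0.07 in edgeR (adjusted p = 0.0709) and -0.31 ± 0.08 in DESeq2 (adjusted p = 0.0118), and it was named after its values were seen. The Gfpt1 change, in the first enzyme of the hexosamine pathway that supplies GlcNAc and GalNAc, was lower in goblet cells than in colonocytes by -0.27 ± 0.08 (adjusted p = 0.0485, interaction term in edgeR). That of Galnt3, a GalNAc transferase, was lower by -0.74 ± 0.18 (adjusted p = 0.00967, same test). That of Papss2, which makes the sulfate donor, was higher by 0.58 ± 0.17 (adjusted p = 0.0484, same test). Of 67 further genes tested for this difference, 2 were past the threshold upward and 4 downward, beside 4.34% of all genes tested. Over all genes, DESeq2 called 206 in place of 574. Alternatives for Gfpt1, Galnt3 and Papss2 are not given, and Gfpt1 and Papss2 lay just under the threshold.

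In colonocytes, 3 of the 59 further genes tested rose and 0 fell, beside 1.76% and 1.44% of all genes tested. The 59 genes had a median log2 change of 0.05. Muc2 rose from 20.8 ± 5.57 to 65.7 ± 10.4 CPM (SD, n = 2 libraries each), a log2 change of 1.63 ± 0.16 (adjusted p = 6.93e-07, edgeR's quasi-likelihood test with Benjamini-Hochberg adjustment). Chst4, which adds sulfate to GlcNAc, had 2, 2, 33 and 31 counts, a log2 change of 3.29 ± 0.70 (adjusted p = 0.00887, same test). St3gal6, a sialyltransferase acting on galactose, rose from 61.8 ± 1.25 to 83.1 ± 2.12 CPM, a log2 change of 0.41 ± 0.10 (adjusted p = 0.0296, same test).

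Muc2 was also found more often after CCl4 in cells that should lack it. The share of thinned fibroblasts with a Muc2 UMI was 6.07%, 6.26%, 19.5% and 16.2%, against 2.98%, 4.33%, 13.0% and 12.1% of colonocytes. The colonocyte share did not exceed that of fibroblasts in any of the 4 libraries. Chst4 is a goblet gene too, at 129 to 146 CPM in goblet cells. The part of free RNA in the colonocyte values of Muc2 and Chst4 was not tested. The St3gal6 call was lost without CCl4 1 (log2 change 0.36, adjusted p = 0.266), without CCl4 2 (0.47, adjusted p = 0.106) and without control 2 (0.36, adjusted p = 0.143). It was also lost by DESeq2 (0.41, adjusted p = 0.158) and with the stricter filters (0.33, adjusted p = 0.591), and it held in 8 of 13 alternatives. The Chst4 call was lost without the same libraries, with adjusted p of 0.0994, 0.146 and 0.0553 at log2 changes of 3.29, 3.29 and 3.31. It was also lost with clusters of all cells (log2 change 1.23, adjusted p = 0.419) and at resolution 2.0 (2.80, adjusted p = 0.0730). It held in 6 of 12 alternatives, 1 of which, DESeq2, gave no adjusted p.

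In crypt cells, 0 of the 49 further genes tested passed the threshold of edgeR's test, beside 0.162% of all genes tested. There were 4 with an unadjusted p below 0.05, beside 1045 of 9865 genes tested. DESeq2 called 0 of them, beside 29 of 19656 genes fitted. The 49 genes had a median log2 change of 0.00. B3gnt7 was past the threshold there with no gene of these lists, by edgeR's test.

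The genes most like each enzyme across the 13 class means were found by Pearson's r of log2(CPM + 10), among 7502 genes with at least 50 CPM in a class. These correlations share libraries and depth and are descriptions. B3gnt7 was most like Agr2 (r = 0.993), a goblet cell protein disulfide isomerase, Tff3 (r = 0.992), a trefoil peptide of mucus, Ceacam10, Cd177 and Chst4. B3gnt6 was most like Sval1 (r = 0.993), Clps, Hpd, Gm1123 and Atp2c2. Galnt12 was most like Galnt3 (r = 0.968), a second GalNAc transferase, and Gfpt1 (r = 0.955), followed by Klk1, Nipal1 and Kcnk1.

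C1galt1 was most like Slc35a2 (r = 0.894), the Golgi carrier of UDP-galactose, Apeh, Slc12a8, Fut4 and Hdlbp. Gcnt3 was most like Lrrc26 (r = 0.990), Tmem184a, Sel1l3, Guca2b and Fut2, and St6galnac6 was most like Tcea3 (r = 0.969), Yipf1, Pdxdc1, Tmem184a and Prkaa2. B4galnt2 was most like Cblc (r = 0.996), Mapk13, Ckmt1, Nlrp4e and Adgrg7, and Fut2 was most like Guca2b (r = 0.993), Tmc5, Prss8, Pck1 and Ripk4. Among the 8 themselves, Gcnt3 and Fut2 were closest (r = 0.974), and B3gnt6 and B4galnt2 were farthest apart (r = 0.328).

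Within the epithelium the genes also differed in how evenly the clusters of a class held them. Between the 6 goblet clusters, Galnt12 varied 1.62-fold, B4galnt2 1.65-fold, St6galnac6 1.65-fold and Fut2 1.93-fold. C1galt1 varied 2.80-fold, Gcnt3 3.04-fold and B3gnt6 3.70-fold. B3gnt6, C1galt1, Gcnt3, B4galnt2 and Fut2 were highest in cluster 10, led by Retnlb and Muc2, B3gnt7 and St6galnac6 in cluster 8, and Galnt12 in cluster 14. Between the 8 colonocyte clusters, Gcnt3 varied 4.47-fold, from 21.3 to 95.4 CPM, and B4galnt2 2.60-fold, from 56.8 to 148 CPM.

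**Figure D5:**
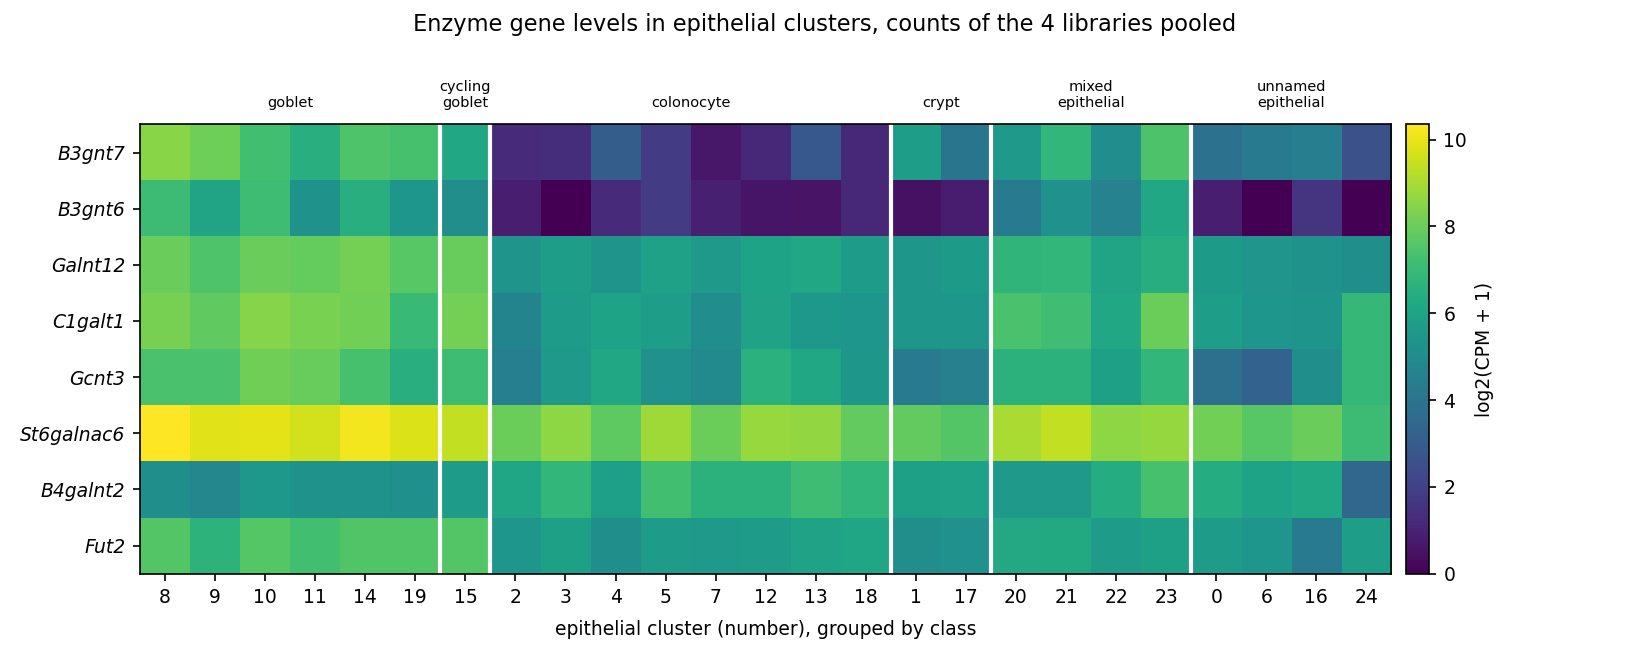
Level of each enzyme gene in the epithelial clusters, as log2(CPM + 1) with the counts of the 4 libraries pooled; columns are clusters grouped by class, and colours are to be compared along a row. For 7 genes the brightest cluster is a goblet cluster, B4galnt2 is brightest in cluster 23, mixed with goblet, at 159 CPM and in colonocyte cluster 5 at 148 CPM, and colonocyte clusters are dark for B3gnt7 and B3gnt6.

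Some of the counted genes overlap other annotated genes in GENCODE M21. Gm28626 lies opposite B3gnt7, Gm43962 opposite C1galt1 and Gm11534 opposite B4galnt2, and the sources used here do not say whether counting used the strand. Reads of these pairs may not have been told apart.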

How the data were processed

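Raw counts per gene and cell barcode of 4 libraries were used as deposited. The authors made them with PISA, per the file headers, on GRCm38, per the submitters' processing notes, and no barcode had fewer than 1001 counts. The aligner and the use of strand in counting are not given in the sources used here. Barcodes under 200 genes or over 25% mitochondrial counts were dropped. The 6% with the highest doublet scores in each library were removed, since the automatic threshold called 0 to 2 cells per library, which left 8103, 8245, 10383 and 9792 cells.

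Cells were clustered in scanpy 1.11.5 (2000 variable genes, 30 components, 15 neighbours, Leiden resolution 1.0, and 1.5 for epithelial cells) and classed from marker lists. The thresholds for naming clusters were set after the clusters were seen. Counts were summed per class and library and tested with edgeR 4.0.16 (TMM, filterByExpr, quasi-likelihood test, Benjamini-Hochberg adjustment over all genes tested, threshold 0.05). DESeq2 1.42.0 was an alternative. Differences between classes were an interaction term with library as a block.

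The 8 genes and the lists were chosen with earlier results of these data known. Named genes are the 8, the list genes past the threshold and the 5 genes most like each of the 8. The labels do not say that libraries came from separate animals, so p-values measure only the spread between libraries. Intervals cover counting error only.

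The tests were run on simulated data with 200 genes changed. For goblet cells, over 11552 genes, 34.2%, 57.8% and 89.3% of genes changed 1.5-, 2- and 4-fold were recovered. For crypt cells, over 9751 genes, the shares were 8.47%, 32.3% and 89.4%.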

Additional observations from a re-analysis of the deposited data

Results flagged for a closer look

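The treatment change of 14 gene and class pairs differed between 2 classes by the interaction term of edgeR's quasi-likelihood fit with Benjamini-Hochberg adjustment (n = 2 libraries per group). All values are differences of log2 changes, and no cause was tested. Over all genes tested, 4.34% differed between goblet cells and colonocytes, 0.209% between goblet and crypt cells and 0.151% between colonocytes and crypt cells. In the same order, 8, 8 and 7 enzyme genes and 67, 60 and 61 further list genes were tested, apart from the posterior Hox genes.

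Of the 8 enzyme genes, which are described without p-values, B3gnt7 had a goblet change below its crypt change by -4.09 and Gcnt3 a goblet change below its colonocyte change by -0.90. The St6galnac6 change was 0.50 higher in goblet cells than in colonocytes, and the colonocyte minus crypt value was -0.85.

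Of the mucins, Muc2 and Muc3 differed. For Muc2 the goblet minus colonocyte value was -2.11 (adjusted p = 8.79e-14, edgeR) and the colonocyte minus crypt value was 2.51 (adjusted p = 0.0221, edgeR). For Muc3 the goblet minus colonocyte value was 1.99 (adjusted p = 1.95e-10, edgeR), the goblet minus crypt value was 1.27 (adjusted p = 0.0367, edgeR) and the colonocyte minus crypt value was -0.75 (adjusted p = 0.0221, edgeR).

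The other genes differed between goblet cells and colonocytes. Goblet minus colonocyte was -3.37 for Chst4 (adjusted p = 1.41e-05, edgeR), -0.74 for Galnt3 (adjusted p = 0.00967, edgeR) and -0.27 for Gfpt1 (adjusted p = 0.0485, edgeR). It was 0.48 for Hoxb13 (adjusted p = 0.0348, edgeR) and 0.58 for Papss2 (adjusted p = 0.0484, edgeR).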

How the results depend on the processing

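The count of genes past the threshold moved with the processing. In goblet cells it was 148, and 373 with no low-count filter. In colonocytes it was 393, and 232 with clusters of all cells, 162 by DESeq2 and 164 at resolution 2.0. In crypt cells it was 16, and 52 with clusters of all cells, 29 by DESeq2, 147 with no low-count filter, 8 with strict cell filters and 6 at resolution 1.0, a setting added after seeing the data. DESeq2 gave 206 in place of 574 for goblet against colonocyte changes and 4 in place of 19 for colonocyte against crypt changes. Leaving out each library gave 118 to 632 in goblet cells, 158 to 751 in colonocytes and 20 to 362 in crypt cells. For the differences between classes it gave 191 to 805 (goblet and colonocyte), 25 to 76 (goblet and crypt) and 16 to 333 (colonocyte and crypt). A group left with 1 library is assumed to vary like the other. The cause was not tested.

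The library numbers are shared by the groups, and the main fit did not pair the libraries by them. Deviations of same-numbered libraries correlated at 0.0919, 0.0434 and 0.0169 in goblet cells, colonocytes and crypt cells. With 2 libraries per group, these values cannot show that the libraries are unpaired. With the replicate block the counts were 224 in goblet cells, 593 in colonocytes and 10 in crypt cells.

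No change past the threshold reversed. Changes not past it changed sign in some alternatives. In crypt cells the range over settings was -0.64 to 1.48 for Galnt12, whose highest value came at resolution 1.0, -0.36 to 0.28 for C1galt1, -0.28 to 0.54 for B4galnt2 and -0.65 to 0.15 for Fut2. In colonocytes it was -0.39 to 0.12 for Galnt12 and -0.14 to 0.08 for C1galt1. In goblet cells it was -0.12 to 0.07 for Galnt12 and -0.20 to 0.09 for B4galnt2. With doublets kept, the clusters named crypt and cycling among all cells were not classed as epithelial, and no crypt cluster was named among the epithelial cells, so that alternative gave no crypt value. The 60 and 54 control crypt cells limit what could be seen there.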

Other observations

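B3gnt7 was also present in epithelial cells outside the 3 classes. Unnamed cluster 0 was led by Gsdmc3, Cyp2c68 and Gsdmc2, and unnamed cluster 6 by Utp20, Hspb1 and Gsdmc3. Together they held 136, 101, 313 and 313 cells in control 1, control 2, CCl4 1 and CCl4 2. B3gnt7 had 0, 5, 83 and 75 counts there, or 0, 3.24, 20.02 and 19.7 CPM, and both CCl4 libraries lay above both controls. Muc2 was at 45.1, 53.1, 124 and 82.4 CPM in the same cells. In a cycling goblet cluster of 29, 20, 83 and 97 cells, B3gnt7 was at 36.7, 16.3, 96.7 and 76.1 CPM, and B4galnt2 at 33.2, 16.3, 50.9 and 69.6 CPM, again without overlap of the groups. These clusters were singled out after their values were seen and were not tested.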
